A study of Mus musculus with 4 samples.

Results

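The AP-1 and early growth response genes of the mouse glomerulus were followed here by their symbols: Jun, Junb, Jund, Fos, Fosb, Fosl1, Fosl2, Atf3, Egr1 and Dusp1, which are 10 of the 52636 genes counted. Each symbol matched 1 gene ID. The genes were described in single cells of glomeruli, the filtering units of the kidney, from untreated mice. The groups were young (2 libraries) and aged (2 libraries), and age is the only difference the labels give. Age in months, sex, strain and the number of mice behind a library are not stated in the sources used here, so p-values measure the spread between libraries, which may be technical. Per the labels' protocols, mice were perfused with magnetic beads, kidneys were minced and digested for 20 min at 37 °C, and the glomeruli held by the magnet were digested again for 40 to 60 min at 37 °C. The time used for each library is not given. These genes are known to be induced by tissue dissociation itself, so the levels below are those of cells after digestion.

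AP-1 is a transcription factor made of a Jun protein paired with another Jun protein, a Fos protein or an ATF protein, and the make-up of the pair sets its strength and its targets. Jun, Fos, Fosb, Atf3 and Egr1 are immediate early genes, which are transcribed within minutes of a growth factor, cytokine or stress signal through MAP kinases, without new protein synthesis. Jund is expressed more steadily, Junb can weaken Jun, and Fosl1 and Fosl2 (Fra-1 and Fra-2) lack the strong activation domain of Fos and commonly follow it. Atf3 is a stress factor that can repress or activate, Egr1 is a zinc finger factor that reads GC-rich sites, and Dusp1 is a phosphatase that switches MAP kinases off. In the kidney these genes are known to respond to injury and to mechanical load on podocytes, the cells that wrap the capillaries.

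The start regions shown are those of members that carry a short motif through which cAMP and MAP kinase signals are known to act, or a related Jun-type site. The motif is the cAMP response element (CRE). Jund and Fosl2 were searched, had neither and are not shown. Any part of the motif in the changes below was not tested. The 150 bases before the RefSeq start site (GRCm38.p6) are given 5′ to 3′ on the gene's strand. Capitals mark the short CRE motif TGACG on either strand, the full CRE TGACGTCA in Dusp1, or the Jun-type site TGACATCA in Jun. The stretches are chr12:85473740-85473889 (plus) for Fos, chr4:95052223-95052372 (minus) for Jun, chr7:19310046-19310195 (minus) for Fosb, chr8:84978749-84978898 (minus) for Junb, chr1:191183334-191183483 (minus) for Atf3 and chr17:26508473-26508622 (minus) for Dusp1.
Fos: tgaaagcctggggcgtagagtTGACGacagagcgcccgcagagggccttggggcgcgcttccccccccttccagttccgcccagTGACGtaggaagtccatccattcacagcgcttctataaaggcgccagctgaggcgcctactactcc
Fosb: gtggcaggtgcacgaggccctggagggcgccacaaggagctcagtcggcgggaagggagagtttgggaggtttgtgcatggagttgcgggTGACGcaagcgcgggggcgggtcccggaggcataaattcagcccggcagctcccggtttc
Jun: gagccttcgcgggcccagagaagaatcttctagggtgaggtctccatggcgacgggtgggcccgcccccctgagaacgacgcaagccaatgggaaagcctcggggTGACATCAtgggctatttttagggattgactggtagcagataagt
Junb: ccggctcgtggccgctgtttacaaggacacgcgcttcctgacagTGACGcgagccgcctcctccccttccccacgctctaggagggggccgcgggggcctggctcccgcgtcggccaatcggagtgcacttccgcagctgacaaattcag
Atf3: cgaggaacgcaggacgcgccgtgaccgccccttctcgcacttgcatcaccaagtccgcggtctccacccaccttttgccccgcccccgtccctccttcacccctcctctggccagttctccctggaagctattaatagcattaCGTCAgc
Dusp1: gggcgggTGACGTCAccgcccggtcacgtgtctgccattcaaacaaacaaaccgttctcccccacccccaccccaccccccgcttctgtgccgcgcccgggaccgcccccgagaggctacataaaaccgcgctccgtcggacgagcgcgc

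Over the 250 bases before the start, the short CRE motif TGACG, searched on both strands, was found in 5 of the 8 members searched (Fos, Fosb, Junb, Atf3 and Dusp1) and in 17.7% of 32817 RefSeq windows of that length. The short motif lies inside the full CRE, so the matches overlap. The full CRE TGACGTCA was found in Dusp1 alone among the 8 and in 1.55% of all windows, and TGACATCA in Jun alone and in 2.93% of all windows. The AP-1 site TGANTCA, the EGR1 site GCGTGGGCG and the CArG box were found in none of the 8 and in 6.75%, 0.536% and 1.47% of all windows. Egr1 and Fosl1 were not among the 8 members searched, so these counts say nothing of them. The RefSeq starts of Fos and Jun are those of the GENCODE genes, whereas those of Atf3 and Dusp1 lie 34706 and 53656 bases inside the annotated gene.

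In GENCODE vM21 for GRCm38, the build of the files, all 10 genes are protein coding. Jun lies on chromosome 4 from 95049034 to 95052222 (minus strand), Junb on chromosome 8 from 84974484 to 84978718 (minus) and Jund on chromosome 8 from 70698949 to 70700616 (plus). Fos lies on chromosome 12 from 85473890 to 85477273 (plus), Fosb on chromosome 7 from 19302696 to 19310051 (minus), Fosl1 on chromosome 19 from 5447547 to 5455946 (plus) and Fosl2 on chromosome 5 from 32135801 to 32157842 (plus). Atf3 lies on chromosome 1 from 191170296 to 191218039 (minus), Egr1 on chromosome 18 from 34859823 to 34864984 (plus) and Dusp1 on chromosome 17 from 26505590 to 26562128 (minus). Jun, Junb, Jund, Fosl1, Atf3 and Dusp1 overlap a gene on the opposite strand, and whether strand was used in counting is not stated in the sources used here. The overlapping gene Prdx2 had 5.86% as many UMIs (unique molecular identifiers, 1 per captured RNA molecule) as Junb in podocytes and 35.6% as many in parietal epithelial cells. Junos had 1 UMI beside 156189 of Jun in podocytes, and Ergic1 had 4.09% as many as Dusp1 there and 19.0% as many in parietal epithelial cells.

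The libraries held 33323 barcodes with 124600182 UMIs, from 18457791 to 42046542 per library, and 28000 cells were kept. Cells were clustered without the members, other immediate early genes or heat shock genes, and the 21 clusters were named from marker genes. Podocyte-like cells numbered 1740 and 578 (young libraries) against 969 and 648 (aged), endothelial-like cells 2410 and 1417 against 6016 and 4287, mesangial-like cells 280 and 175 against 551 and 460, and parietal epithelial-like cells 30 and 69 against 49 and 58. Summed podocyte markers were 22769.7 and 24426 (young) against 24349.7 and 24503 (aged) (plain CPM, UMIs scaled by the total of the class) in podocytes and between 228 and 1426 in the other 3 classes. Young replicate 2 stands apart: 57.6% of its kept cells fell into clusters with markers of several classes, against 4.19%, 1.07% and 1.85% in the other libraries, and those cells were left out. The tests of age were repeated without each library, and calls that were lost are given beside the results. Between 5 and 21 cell barcodes were shared by any pair of libraries.

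Across cell classes, podocytes held the most Fos, Jun, Atf3 and Egr1 of the 11 named classes, and the lowest level of each lay among the lymphocytes or macrophages. The 10 genes together made up 35299 and 36364 (young) against 32344 and 33405 (aged) CPM in podocytes. In endothelial cells the sum was 17076 and 17518 (young) against 17822 and 17859 (aged). Levels by class in this and the next 3 paragraphs are plain CPM, the UMIs of a gene scaled by all UMIs of the class, as mean ± SD over the libraries with enough cells. The classes share their libraries, so levels with overlapping spread can still pass the library-blocked tests of edgeR. Those tests also scale the classes to each other with a TMM factor per sum, which plain CPM lacks. A tested log2 difference can therefore be unlike that of the printed means, mostly for parietal epithelial cells. The tested log2 differences and adjusted p-values are given with the levels.

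Among the Jun genes, Jun was at 7207 ± 859 (n = 4) in podocytes, followed by endothelial cells at 2486 ± 479, smooth muscle and renin cells at 2369 ± 709.7, mesangial cells at 1971 ± 883 and parietal epithelial cells at 1951 ± 1078. Those 4 classes behind podocytes overlapped in their spread, but Jun was called lower in parietal epithelial than in endothelial cells (-0.86 ± 0.15 SE, adjusted p = 7.35e-06) and in mesangial than in endothelial cells (-0.43 ± 0.14 SE, adjusted p = 0.0233). The mesangial call was lost without aged replicate 1 (-0.30) or aged replicate 2 (-0.44). B cells (129 ± 159) and T and NK cells (91.00 ± 40.2) were lowest for Jun. Junb was highest in mesangial cells (4688 ± 395) and podocytes (4493 ± 314), which did not pass the test against each other, then smooth muscle and renin cells (4011 ± 666) and endothelial cells (3638 ± 644). Parietal epithelial cells were at 1211 ± 474, within the range of the leukocytes. Jund, the steadier Jun gene, ran from 3773 ± 855 in parietal epithelial to 5043 ± 1236 in mesangial cells, and B cells held 2168 ± 702. It was called lower in parietal epithelial than in mesangial (-0.65 ± 0.12 SE, adjusted p = 0.000425) and endothelial cells (-0.62 ± 0.12 SE, adjusted p = 5e-05), and higher in mesangial (0.40 ± 0.14 SE, adjusted p = 0.0259) and endothelial cells (0.28 ± 0.10 SE, adjusted p = 0.0225) than in podocytes. The mesangial call against podocytes was lost without young replicate 1 (0.35), young replicate 2 (0.30) or aged replicate 2 (0.41). The endothelial one was lost without young replicate 1 (0.29) or aged replicate 2 (0.26).

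Among the Fos genes, Fos was at 10063 ± 948 (n = 4) in podocytes and at 3115 ± 736 in the next class, smooth muscle and renin cells, and the lowest podocyte library (9140) lay above the highest library of any other named class (3969). Parietal epithelial (2609 ± 1126), mesangial (2494 ± 675) and endothelial cells (1737 ± 347) followed with overlapping spread, and of these Fos passed between mesangial and endothelial cells (0.51 ± 0.18 SE, adjusted p = 0.0301). That call was lost without young replicate 1 (0.40), young replicate 2 (0.33) or aged replicate 2 (0.46). Fosb was at 2143 ± 279 in podocytes and 1914 ± 933 in parietal epithelial cells, which overlapped but differed in the test (-0.55 ± 0.16 SE for parietal epithelial minus podocyte, adjusted p = 0.00465), and at 740.2 ± 263 in mesangial cells. The Fosb call was lost without aged replicate 1 (-0.26). Fosl1 had another order: parietal epithelial cells led with 60.4 ± 32.98, then endothelial cells with 36.8 ± 13.8, which overlapped and did not pass the test against each other (0.45 ± 0.23 SE, adjusted p = 0.111). Mesangial cells (4.89 ± 3.60) and podocytes (3.68 ± 2.25) ranked 6 and 7 of the 11 classes for Fosl1, above the monocytes, macrophages and lymphocytes. Fosl2 was highest in smooth muscle and renin cells (374 ± 58.1), endothelial cells (335 ± 70.00) and T and NK cells (295 ± 60.4), and podocytes held 136 ± 35.6. Podocytes, first of the 4 glomerular classes for Fos, had the lowest mean of the 4 for both Fosl1 and Fosl2.

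Atf3 was at 3159.6 ± 875 (n = 4) in podocytes and between 1239 and 1840 on average in the other kidney classes. Egr1 was at 2452 ± 484 in podocytes, and smooth muscle and renin (1200.2 ± 482), parietal epithelial (988 ± 649.7), mesangial (948 ± 544) and endothelial cells (819 ± 282) overlapped below it. Dusp1 was at 1305 ± 535 in endothelial, 1213 ± 112 in mesangial and 875 ± 306 in podocyte cells, which overlapped, and at 211 ± 79.4 in parietal epithelial cells. Of the first 3 classes, mesangial cells and podocytes differed in Dusp1 (0.56 ± 0.19 SE, adjusted p = 0.0207), and endothelial cells passed against neither. The difference between mesangial cells and podocytes was not called without aged replicate 1 (0.41) or aged replicate 2 (0.38).

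The 4 glomerular classes were tested against each other pair by pair with edgeR's quasi-likelihood test, with the library as a block. Of the 10 genes, 8 differed between endothelial cells and podocytes, where 79% of all genes were called, 8 between mesangial cells and podocytes (70.6% of all genes) and 8 between parietal epithelial cells and podocytes (40.7%). The counts were 7 for mesangial against endothelial (59%), 6 for parietal epithelial against endothelial (45.3%) and 6 for parietal epithelial against mesangial cells (42.9%). The shares over all genes are high, so these counts do not set the members apart. The largest difference was that of Fosl1, which was higher in parietal epithelial cells than in podocytes by 3.82 ± 0.35 (adjusted p = 4.4e-13) on the log2 scale. Dusp1 differed by -2.96 ± 0.19 (adjusted p = 1.03e-16) between parietal epithelial and endothelial cells. Fos in podocytes exceeded endothelial Fos, with a log2 difference of -2.50 ± 0.17 (adjusted p = 1.71e-07) for endothelial minus podocyte.

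**Figure D1:**
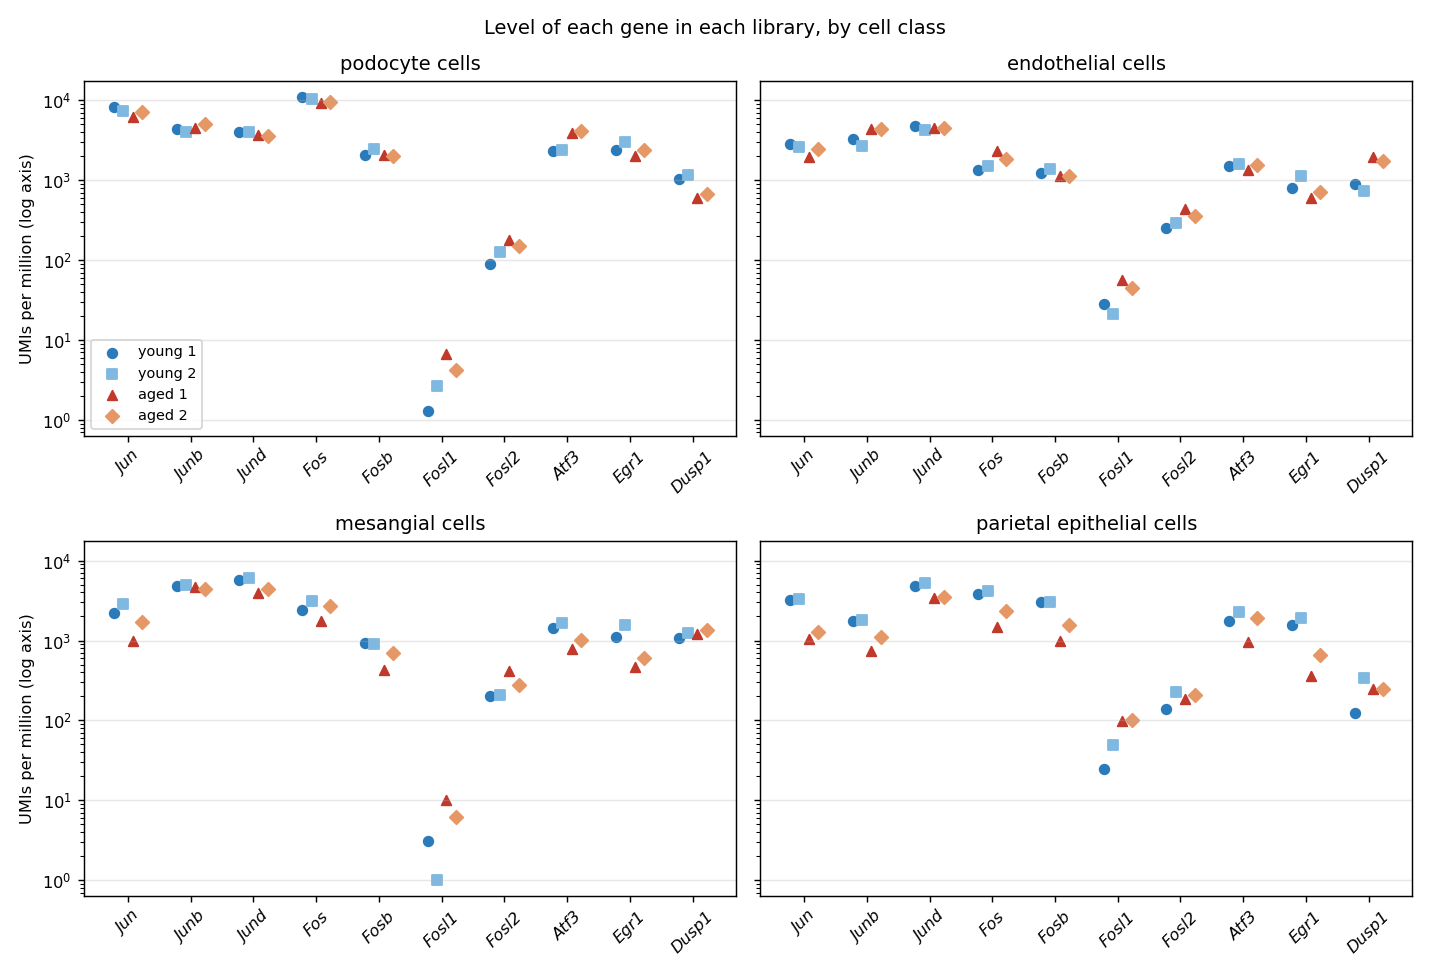
Level of each of the 10 genes in each library (CPM after TMM scaling, log axis) in the 4 glomerular classes, with circles and squares for young and triangles and diamonds for aged libraries. Podocyte Fos lies between 9414 and 10982, and Fosl1 lies between 1.002 and 101 over the 4 classes.

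In podocytes, 3 of the 10 genes were higher and 1 was lower in aged libraries, against 6.2% of all 10867 genes called (4.11% higher and 2.09% lower). Atf3, Fosl2 and Fosl1 rose and Dusp1 fell, while Jun, Junb, Jund, Fos, Fosb and Egr1 did not pass the test. The values here and in the tests of age below are CPM after TMM scaling, and changes are log2 fold changes of aged over young from edgeR's quasi-likelihood test with Benjamini-Hochberg adjustment over all genes. Atf3 was at 2323 and 2409 (young) against 3870.4 and 4137 (aged). The groups did not overlap, and the change was 0.76 ± 0.15 (SE; adjusted p = 0.00113), or 1.69-fold. Fosl2 was at 90.8 and 127 (young) against 177 and 151 (aged), a change of 0.61 ± 0.15 (SE; adjusted p = 0.00777).

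Dusp1, the phosphatase, moved the other way in podocytes. It was at 1046 and 1177 (young) against 595 and 669.5 (aged), with no overlap, and changed by -0.81 ± 0.14 (SE; adjusted p = 0.000197). Fosl1 was at 1.30 and 2.68 (young) against 6.64 and 4.21 (aged), a change of 1.62 ± 0.44 (SE; adjusted p = 0.0195), but these levels rest on 10, 9, 37 and 20 UMIs. Fos was at 10982 and 10428 (young) against 9414 and 9502 (aged) and changed by -0.18 ± 0.17 (SE; adjusted p = 0.67). Jun was at 8203 and 7295 (young) against 6204 and 7199 (aged) with a change of -0.21 ± 0.16 (SE; adjusted p = 0.598), and Egr1 at 2387 and 3021 (young) against 2021 and 2377 (aged) with -0.30 ± 0.16 (SE; adjusted p = 0.342). The groups did not overlap for 9 of the 10 genes, and 46.2% of all genes tested were like that. Without aged replicate 1, 1 of the genes was called, and with the cells of mixed clusters kept none was, where Atf3 changed by 0.80 (adjusted p = 0.142) and Dusp1 by -0.78 (adjusted p = 0.13).

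**Figure D2:**
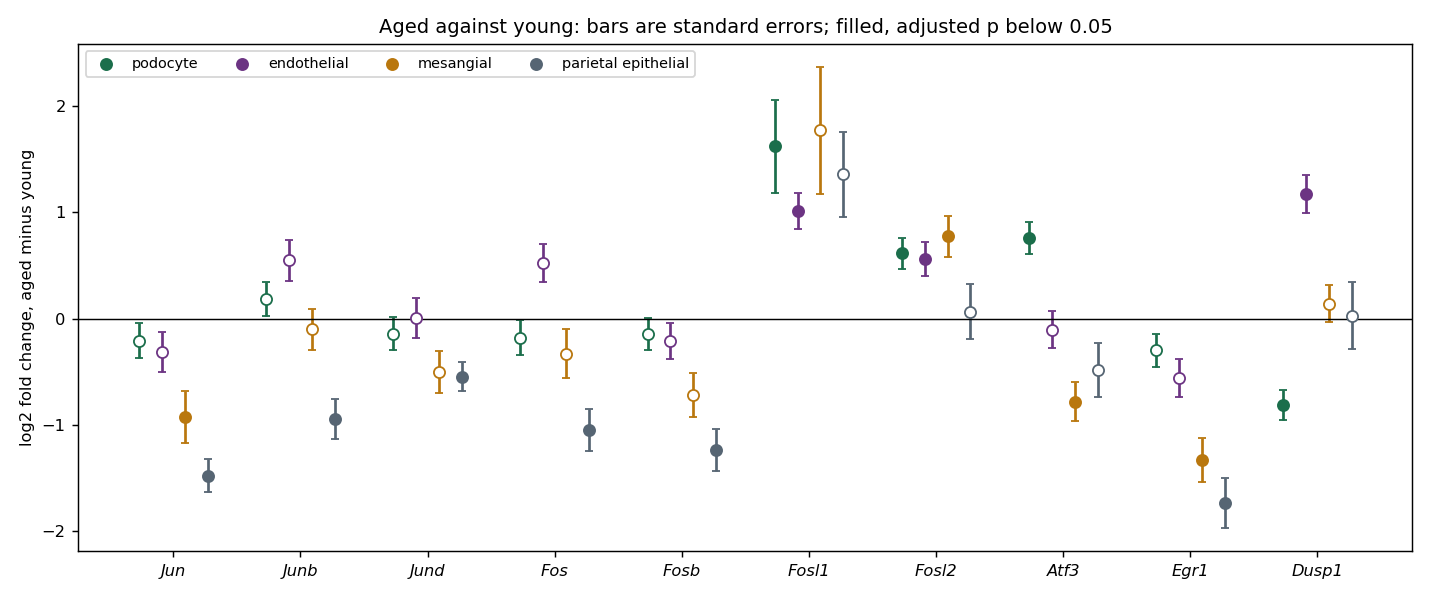
Log2 fold change of aged over young for each gene (horizontal axis) in the 4 glomerular classes, with standard errors as bars and filled points for adjusted p below 0.05. Dusp1 is at -0.81 in podocytes and 1.18 in endothelial cells, and the filled parietal epithelial points all lie below 0.

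The make-up of the podocyte class differed between young and aged libraries, and its part in the podocyte result was not tested. Podocytes fell into 2 clusters, numbered 2 (led by genes that include Dpp4, Thsd7a and Nphs1) and 8 (led by genes that include Luzp2, Tnfsf15, Nupr1 and F3). Cluster 8 held 5.23% and 10.9% of young and 57.3% and 56.5% of aged podocytes. In each library it held more of every member but Fosl1 than cluster 2 did. Atf3, for example, was at 3556 and 3742 (young) against 5059 and 5391 (aged) in cluster 8 and at 2211 and 2306 (young) against 1231 and 1113 (aged) in cluster 2, in plain CPM.

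Tested alone, after the cluster make-up had been seen, the clusters gave other answers than their sum. In cluster 2 all 9 testable genes were lower in aged libraries and all 9 were called, against 4.62% of all genes called in that cluster (2.84% lower) and 4 of 10 of the genes in the whole class. Fos in cluster 2 was at 10512 and 10280.5 (young) against 4375 and 3948 (aged), a change of -1.32 ± 0.18 (adjusted p = 2.46e-06). Fosb was at 1939.6 and 2402 (young) against 800.5 and 666 (aged), with -1.55 ± 0.17 (adjusted p = 7.35e-09), and Egr1 at 2276 and 3001 (young) against 1053 and 927 (aged), with -1.40 ± 0.17 (adjusted p = 1.09e-07). Atf3 and Fosl2, which rose over the whole class, changed by -0.94 ± 0.16 (adjusted p = 9.08e-05) and -0.77 ± 0.18 (adjusted p = 0.00448) in cluster 2.

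In cluster 8, Atf3 rose by 0.57 ± 0.12 (adjusted p = 0.0247) and Dusp1 changed by -1.10 ± 0.13 (adjusted p = 0.000168), and the other 8 genes did not pass the test, where 1.47% of all genes were called. Dusp1 was at 1388 and 1561 (young) against 602 and 719.8 (aged) there, so its lower level in aged libraries was found in both clusters. Fosl2 in cluster 8 was at 169.9 and 215 (young) against 229 and 191 (aged), where the groups overlap, with a change of 0.19 ± 0.14 (adjusted p = 0.65).

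**Figure D3:**
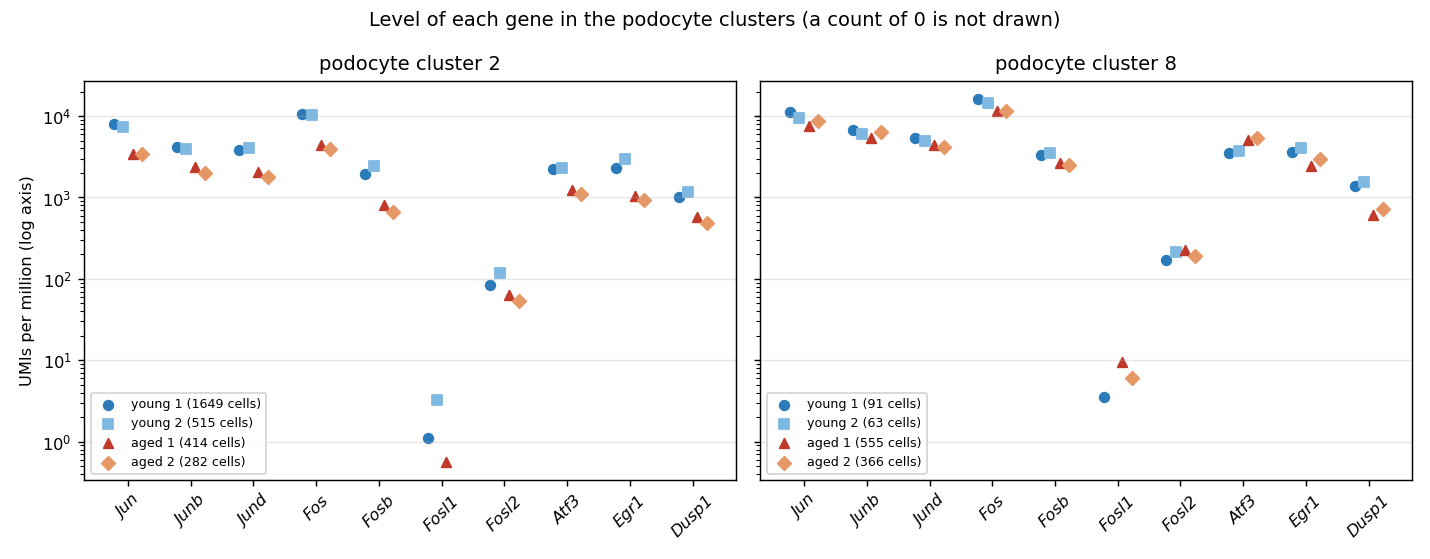
Level of each gene per library (plain CPM, log axis) in podocyte clusters 2 and 8, with the number of cells in the legend. In cluster 2 the aged libraries lie below the young ones for Fos (3948 and 4375 against 10280.5 and 10512), while in cluster 8 only Atf3 and Dusp1 passed the test.

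Podocytes also split into cells with many and with few of these genes. With every cell thinned to 1000 UMIs, 68.2% and 79.5% of young and 74.4% and 71.7% of aged podocytes had a UMI of at least 5 of the 10 genes, and 21.3% and 13.5% against 17.0% and 19.7% had at most 2. The cells between were fewest, at 10.5% and 7.08% against 8.57% and 8.67%. Endothelial cells had a single peak, with 4.37% and 3.07% of young and 2.80% and 3.84% of aged cells at 2 genes or fewer. Fos was found in 89.7% and 93.2% of young and 94.4% and 92.6% of aged podocytes with Jun, but in 15.4% and 20.4% against 22.2% and 24.2% of those without.

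Podocytes with few of the genes lay almost wholly in cluster 2. They made up 22.5% and 15.1% of its cells in young and 39.7% and 45.2% in aged libraries, against 0.180% of cluster 8 in aged replicate 1 and none in the other 3 libraries. Before thinning, cells with at most 2 of the genes had a median of 2996 and 3772 UMIs in young and 2771 and 3702 in aged libraries, and cells with 5 or more had 4710 and 6369 against 6494 and 8622. Their median mitochondrial share was 7.31% and 6.23% in young and 7.80% and 8.99% in aged libraries, against 4.02%, 3.50%, 2.85% and 3.18% in cells with 5 or more. The part of depth and cell quality in the split was not tested.

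**Figure D4:**
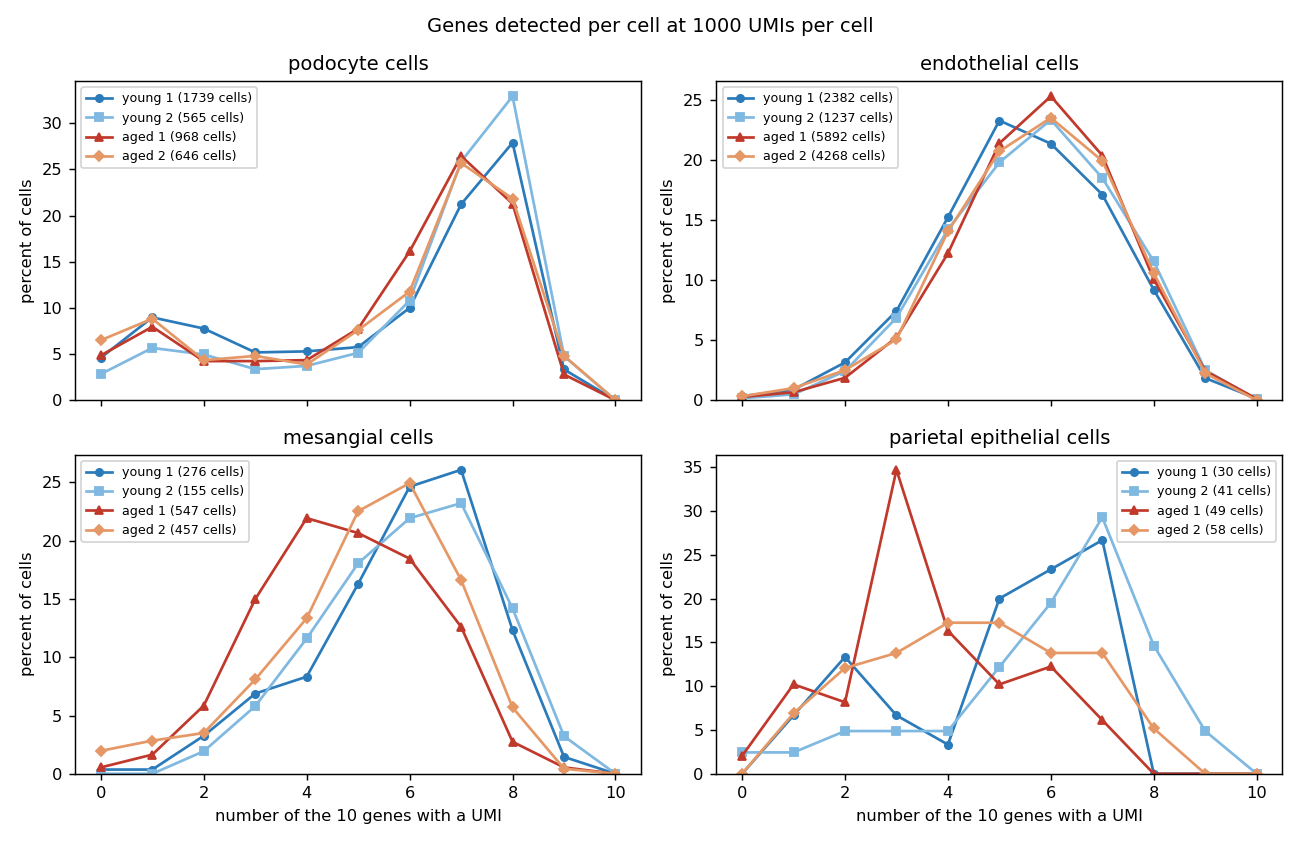
Share of cells (percent) by the number of the 10 genes with a UMI after thinning to 1000 UMIs per cell, 1 line per library, in the 4 glomerular classes. Podocytes have a low group at 0 to 2 genes (13.5% to 21.3% of cells) beside the main peak, and in parietal epithelial cells 28.6% and 50% of aged cells have 5 or more genes against 70% and 80.5% of young cells.

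In endothelial cells, 3 of the 10 genes were higher in aged libraries and none was called lower, against 6.78% of all 13162 genes called (4.41% higher and 2.37% lower). Dusp1, Fosl1 and Fosl2 rose. Dusp1 was at 895 and 737 (young) against 1946 and 1741 (aged). Each aged library exceeded each young one, and the change was 1.18 ± 0.18 (SE; adjusted p = 8.61e-05), or 2.26-fold. Fosl1 was at 28.02 and 21.3 (young) against 55.7 and 44.98 (aged), a change of 1.01 ± 0.17 (SE; adjusted p = 0.000232), and Fosl2 at 253 and 292 (young) against 443 and 361 (aged), with 0.56 ± 0.16 (SE; adjusted p = 0.0307).

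Junb, Fos and Egr1 separated the groups in endothelial cells without passing the test. Junb was at 3304 and 2664 (young) against 4368 and 4370.2 (aged; log2 difference 0.55 ± 0.19 SE, adjusted p = 0.0927) and Fos at 1356 and 1516 (young) against 2301 and 1827 (aged; log2 difference 0.52 ± 0.18 SE, adjusted p = 0.0926). Egr1 was at 804 and 1122 (young) against 594 and 715 (aged), in the opposite direction (-0.56 ± 0.18 SE, adjusted p = 0.0641). Jund was even across libraries, at 4738 and 4222 (young) against 4516 and 4488 (aged). The groups did not overlap for 8 of the 10 genes, against 48.7% of all genes tested.

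Without young replicate 1 or without young replicate 2 no gene of the whole table was called in endothelial cells, and 4 and 5 of the members were at an unadjusted p under 0.05. Dusp1 then changed by 1.33 (adjusted p = 0.302) and 1.05 (adjusted p = 0.312). Cluster 1, with Sele and Il6 among its leading genes, held 16.7% and 17.5% of endothelial cells in young and 42.2% and 37.9% in aged libraries. Dusp1 rose in each of the 5 endothelial clusters tested alone, from 0.94 ± 0.19 (adjusted p = 0.00144) in cluster 0 to 1.51 ± 0.16 (adjusted p = 4.85e-06) in cluster 7. Fos was called in clusters 1, 7 and 11, with 1.21 ± 0.22 (adjusted p = 0.00318) in cluster 1, and Fosl1 in none of the 5. The counts of the 10 genes called were 1, 2, 1, 4 and 2 in clusters 0, 1, 4, 7 and 11, where 3.5%, 2.78%, 1.77%, 3.39% and 3.01% of all genes were called. Summed podocyte markers in the endothelial sums were 904 and 1298 plain CPM in young and 813 and 773 in aged libraries. Of those 9 markers 6 were lower in both aged libraries, Podxl was the most abundant and none was at 0. Summed parietal epithelial markers were 381 and 369 (young) against 700.2 and 482 (aged), with 3 of 7 higher and Akap12 the most abundant. Mesangial markers were at 33.2 and 64.3 (young) against 98.7 and 111 (aged), with Serpine2 the most abundant. Their part in the result was not tested.

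In mesangial cells, the contractile support cells of the capillary tuft, 3 of the 10 genes were lower and 1 was higher in aged libraries, against 6.04% of all 10277 genes called (3.88% higher and 2.16% lower). Egr1, Jun and Atf3 fell and Fosl2 rose. Egr1 was at 1116 and 1569 (young) against 459.5 and 607 (aged). The groups were apart, and the change was -1.33 ± 0.21 (SE; adjusted p = 0.00282), or 2.51-fold lower. Jun was at 2218 and 2905 (young) against 994 and 1706 (aged), a change of -0.92 ± 0.24 (SE; adjusted p = 0.0433), and Atf3 at 1444 and 1675 (young) against 786 and 1028 (aged), with -0.78 ± 0.19 (SE; adjusted p = 0.0281).

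Fosl2 was at 200.5 and 207 (young) against 418 and 281 (aged) in mesangial cells, with 0.78 ± 0.19 (SE; adjusted p = 0.0337). Fosb was at 925 and 909 (young) against 422 and 691 (aged) and missed the threshold (-0.72 ± 0.21 SE, adjusted p = 0.0646), as did Jund at 5801 and 6023 (young) against 3970.5 and 4369 (aged; log2 difference -0.50 ± 0.20 SE, adjusted p = 0.153). Junb was at 4809 and 4947 (young) against 4671 and 4422 (aged) and Dusp1 at 1086 and 1238 (young) against 1204 and 1357 (aged), with changes of -0.10 ± 0.19 (SE; adjusted p = 0.816) and 0.14 ± 0.17 (SE; adjusted p = 0.698). Of the 10 genes 8 did not overlap between the groups, against 53% of all genes tested. Without young replicate 1 or young replicate 2 none of the 10 was called (5 and 4 at an unadjusted p under 0.05), with Egr1 at -1.55 (adjusted p = 0.0719) and -1.06 (adjusted p = 0.165), and without aged replicate 2 there were 8. Summed parietal epithelial markers in these mesangial sums were 568 and 518 plain CPM in young and 2076 and 1169 in aged libraries. Of those 7 markers 2 were higher in both aged libraries, Akap12 was the most abundant and Pax8, Pax2 and Dkk3 were at 0. Summed endothelial markers were 1474 and 1540.02 (young) against 1958 and 2043 (aged), with 6 of 9 higher in both aged libraries, none lower and none at 0, and fibroblast markers were 287 and 307 (young) against 161 and 248 (aged). Their part in the result was not tested.

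Parietal epithelial cells line the capsule around the glomerulus. In them 6 of the 10 genes were lower and none was called higher in aged libraries, against 3.22% of all 4381 genes called (1.67% higher and 1.55% lower). Jun, Junb, Jund, Fos, Fosb and Egr1 fell. Egr1 was at 1542 and 1888 (young) against 357 and 654 (aged), a change of -1.74 ± 0.23 (SE; adjusted p = 0.00162), or 3.33-fold lower. Jun was at 3183 and 3282 (young) against 1040.2 and 1273 (aged), with -1.48 ± 0.15 (SE; adjusted p = 0.000301), and Fosb at 3059.6 and 3007 (young) against 980.1 and 1571 (aged), with -1.24 ± 0.19 (SE; adjusted p = 0.00327). For all 3 the young libraries lay close together and well above the aged ones.

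Fos was at 3769 and 4162 (young) against 1461 and 2354 (aged) in parietal epithelial cells, a change of -1.05 ± 0.19 (SE; adjusted p = 0.0107). Junb was at 1773 and 1827 (young) against 736 and 1117 (aged), with -0.95 ± 0.19 (SE; adjusted p = 0.0172), and Jund at 4833 and 5249.9 (young) against 3387 and 3511 (aged), with -0.55 ± 0.14 (SE; adjusted p = 0.0439). Aged replicate 1 had the lowest level of each of these 3 genes. Atf3 was at 1732 and 2279.6 (young) against 946 and 1895 (aged) and Dusp1 at 124 and 336 (young) against 244 and 246 (aged), where the groups overlap, and neither passed (-0.49 ± 0.25 (SE; adjusted p = 0.338) and 0.03 ± 0.31 (SE; adjusted p = 0.987)). Fosl1 was at 24.7 and 48.9 (young) against 97.6 and 101 (aged), from 3, 8, 26 and 48 UMIs, and did not pass either (1.36 ± 0.40 SE, adjusted p = 0.0889).

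The parietal epithelial sums come from 30 to 69 cells a library, the fewest of the 4 classes, with 137560 to 544007 UMIs. The median UMIs per cell were 3346 and 1126 (young) against 4585 and 5820 (aged), so the cells of young replicate 2 were the shallowest. The groups did not overlap for 7 of the 10 genes, against 49.6% of all genes tested. Summed smooth muscle and renin markers were 2384 and 2741 plain CPM in young and 5089 and 6790 in aged libraries. Of those 6 markers 2 were higher in both aged libraries, Tagln was the most abundant and Cnn1 was at 0. Summed podocyte markers were 945 and 1426 (young) against 653 and 721 (aged), with 4 of 9 lower in both aged libraries and none at 0, and fibroblast markers were 254 and 264 (young) against 155 and 178 (aged). Endothelial markers were at 50.9 and 562 (young) against 121 and 44.1 (aged), highest in young replicate 2. The part of these markers in the result was not tested. Without young replicate 2, 5 genes were called, with Jun at -1.41 (adjusted p = 3.57e-09).

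Whether an effect of age differed between classes was tested as an interaction, for each of the 6 pairs of classes. Of 60 tests of the 10 genes 23 were called. Dusp1 differed most: the endothelial change exceeded the podocyte one by 2.01 ± 0.12 (adjusted p = 3.7e-15), where 7.17% of all genes were called. Atf3 (-0.84 ± 0.10, adjusted p = 1.21e-07), Fos (0.71 ± 0.11, adjusted p = 1.57e-05) and Junb (0.39 ± 0.10, adjusted p = 0.0115) also differed between endothelial cells and podocytes. Between mesangial cells and podocytes (4.55% of all genes) Atf3, Egr1 and Dusp1 differed, with -1.48 ± 0.20 (adjusted p = 1.03e-06) for Atf3. Of the 23 calls, 16 held without young replicate 2, 18 without young replicate 1, 11 without aged replicate 1 and 17 without aged replicate 2.

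Parietal epithelial cells differed from podocytes in 7 genes (2.35% of all genes called) and from endothelial cells in 6 (1.16%). The largest of these was Fos against endothelial cells, at -1.47 ± 0.23 (adjusted p = 2.85e-07). None of these 6 against endothelial cells was called without aged replicate 1, and without young replicate 2 the Dusp1 difference there was 0.08 (adjusted p = 1). Mesangial and endothelial cells differed in Atf3, Egr1 and Dusp1 (2.51% of all genes), and none of the 3 was called without young replicate 2 (adjusted p from 0.122 to 0.296). Between parietal epithelial and mesangial cells no gene of the 10 was called by edgeR (0.929% of all genes), 4 were at an unadjusted p under 0.05, and the difference nearest the threshold was Junb at -0.79 ± 0.21 (adjusted p = 0.0578). Jund, Fosl1 and Fosl2 were called in none of the 6 pairs. The interval of a difference that missed the threshold is wide for Fosl1, for example 0.27 ± 0.85 (adjusted p = 0.948) for mesangial minus podocyte.

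The lists of partners, regulators and targets are read against the share of all genes called, which was 6.2% for podocytes, 6.78% for endothelial cells, 6.04% for mesangial cells and 3.22% for the parietal epithelium. None of the 30 endothelial calls in these lists held without young replicate 1 or young replicate 2, and of 22 mesangial calls 6 held without either of them, all 6 targets. Of 29 podocyte calls 27 held without young replicate 2 and 15 without aged replicate 2, and of 11 parietal epithelial calls 10 and 5 held without young replicate 2 and young replicate 1. Of 11 other AP-1 partners, small Maf and ATF-like proteins that pair with Jun or Fos, 2 of 7 tested were called in either direction in podocytes, 3 of 11 in endothelial cells (all higher), 4 of 10 in either direction in mesangial cells and none of 7 by edgeR in parietal epithelial cells (1 at an unadjusted p under 0.05). Maff rose in podocytes (1.03 ± 0.14, adjusted p = 2.93e-06) and endothelial cells (0.87 ± 0.16, adjusted p = 0.000779). Jdp2, a repressor that pairs with Jun, rose in endothelial (0.97 ± 0.15, adjusted p = 8.61e-05) and mesangial cells (1.25 ± 0.31, adjusted p = 0.0307), and Batf rose in mesangial cells (0.91 ± 0.16, adjusted p = 0.00612).

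Of the 5 EGR and NAB genes, 1 of 4 tested was called in endothelial cells, 1 of 3 in mesangial cells and none by edgeR in podocytes (0 of 4) or parietal epithelial cells (0 of 3), where none was at an unadjusted p under 0.05 either. Egr3 fell in endothelial cells, from 77.96 and 89.2 (young) against 40.8 and 51.2 (aged) (-0.86 ± 0.15, adjusted p = 0.000396), and Nab2, a corepressor that binds EGR1, rose in mesangial cells (1.14 ± 0.19, adjusted p = 0.00439). Of the upstream kinases and SRF, ETS and CREB factors, 1 of 18 tested was called in podocytes, 1 of 22 in endothelial cells and none by edgeR in mesangial (0 of 20) or parietal epithelial cells (0 of 8), with 3 and 2 at an unadjusted p under 0.05, so each count lay below the share over all genes. That gene was Map2k3, a kinase that activates p38, at 0.75 ± 0.15 (adjusted p = 0.000866) in podocytes and 0.77 ± 0.16 (adjusted p = 0.00331) in endothelial cells. Of the feedback inhibitors, 4 of 12 were higher and 1 lower in podocytes, 3 of 14 higher in endothelial cells, 1 of 12 higher in mesangial and none of 10 in parietal epithelial cells (3 at an unadjusted p under 0.05 in edgeR). In podocytes, where Dusp1 fell, Dusp14 (1.62 ± 0.18, adjusted p = 1.43e-07) and Dusp6 (0.94 ± 0.14, adjusted p = 2.82e-05) rose. Dusp6 and Dusp2 rose with Dusp1 in endothelial cells (0.81 ± 0.14 (adjusted p = 0.000434) and 1.01 ± 0.24 (adjusted p = 0.00843)), and Spry1 rose in mesangial cells (1.40 ± 0.23, adjusted p = 0.00398).

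Of 22 known AP-1 and EGR1 target genes, those called were higher: 4 of 12 tested in podocytes, 9 of 16 in endothelial, 11 of 15 in mesangial and 5 of 10 in parietal epithelial cells. None was called lower. The expression filter keeps a gene with enough counts in 2 libraries, so a target low in young libraries can enter through the aged ones alone. Such a target can only be called higher, so these counts and the medians below are partly set by the filter. Without young replicate 2, 4 of 4, 0 of 9, 6 of 11 and 5 of 5 of these calls held. Their median change was 0.71, 1.16, 1.50 and 0.75 in that order, against 0.0055, -0.0059, -0.0086 and 0.0025 over all genes tested. The median of the 10 members was -0.15, 0.27, -0.42 and -0.75. In mesangial and parietal epithelial cells the called targets were higher in aged libraries, while 9 of the 10 called members there were lower. Il6 rose in endothelial cells (2.60 ± 0.16, adjusted p = 8.16e-11), Mmp3 (4.54 ± 0.33, adjusted p = 3.95e-05) and Ptgs2 (2.79 ± 0.22, adjusted p = 3.95e-05) in mesangial cells, and F3 (2.30 ± 0.27, adjusted p = 0.000559) and Cxcl1 (1.95 ± 0.40, adjusted p = 0.0193) in parietal epithelial cells. In podocytes the called target Timp1 stayed low, at 0.781 and 0.894 CPM (young) against 5.39 and 8.85 CPM (aged).

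The other immediate early genes, which dissociation is also known to induce, did not move in 1 direction. Of 26 tested in podocytes 6 were higher and 3 lower, of 27 in endothelial cells 7 and 0, of 27 in mesangial cells 2 and 3, and of 23 in parietal epithelial cells 2 and 3. Without young replicate 2, 9 of the 9 podocyte calls, 0 of 7 endothelial, 0 of 5 mesangial and 4 of 5 parietal epithelial calls held. Ctgf rose in podocytes (2.00 ± 0.14, adjusted p = 8.81e-12) and parietal epithelial cells (1.11 ± 0.17, adjusted p = 0.00319), and Klf6 (0.87 ± 0.16, adjusted p = 0.000786) in endothelial cells. Tob2 changed by -1.32 ± 0.14 (adjusted p = 1.04e-07) in podocytes, Btg2 by -1.19 ± 0.22 (adjusted p = 0.00702) in mesangial cells and Ier2 by -1.46 ± 0.27 (adjusted p = 0.0104) in parietal epithelial cells. Myc rose in endothelial (1.89 ± 0.36, adjusted p = 0.000984) and mesangial cells (2.08 ± 0.35, adjusted p = 0.00455).

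The heat shock genes of the dissociation response were higher in aged podocytes (8 of 10) and endothelial cells (6 of 10), in 1 of 10 in parietal epithelial and in 0 of 10 in mesangial cells by edgeR (4 at an unadjusted p under 0.05). These calls rest on aged replicate 2: without it 1 of the 8 podocyte calls held and none of the 6 endothelial calls or of the 1 parietal epithelial call, while without young replicate 2, 6, 0 and 1 held. Their summed level in podocytes was 9889 and 9366 (young) against 11352 and 20776 (aged) plain CPM, and in endothelial cells 17856 and 15506 (young) against 18467 and 29855 (aged). In mesangial cells it was 31755 and 32729.6 (young) against 27785 and 43245 (aged) and in parietal epithelial cells 4594 and 5742 (young) against 5388 and 9686 (aged). Aged replicate 2 was highest in all 4 classes. For the summed members it was highest in endothelial cells (17859, against 17822 in aged replicate 1) but not in podocytes, mesangial or parietal epithelial cells. Its member sum was above that of aged replicate 1 in these 3 classes too. The sums were 33405 against 32344 in podocytes, 16855 against 13689 in mesangial and 11298 against 8449 in parietal epithelial cells. Dnajb1 (1.38 ± 0.14, adjusted p = 4.81e-08) and Hsph1 (1.01 ± 0.18, adjusted p = 0.000233) rose in podocytes, Hspe1 (1.20 ± 0.23, adjusted p = 0.00145) and Hspd1 (1.01 ± 0.20, adjusted p = 0.00185) in endothelial cells and Hspa8 (0.83 ± 0.21, adjusted p = 0.0439) in parietal epithelial cells. The part of the digestion in the changes of the 10 members was not tested, since the time per library is not given.

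**Figure D5:**
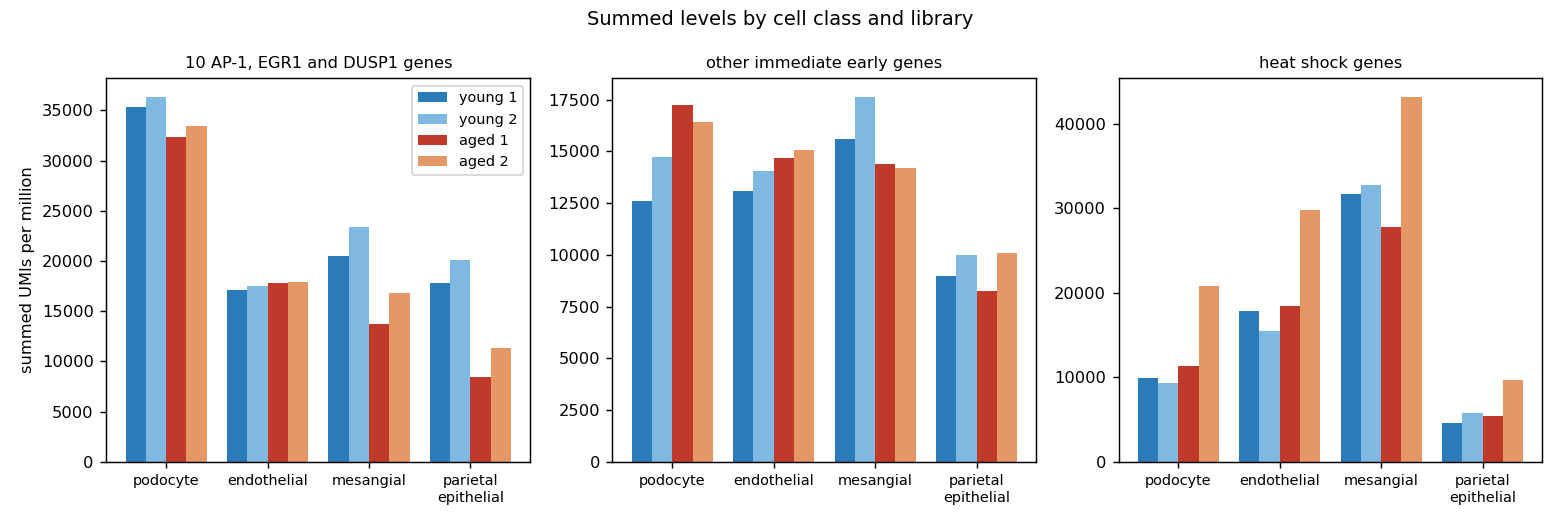
Summed level (plain CPM) of the 10 members, of the other immediate early genes and of the heat shock genes in each glomerular class, 1 bar per library. The member sum is lower in aged than in young libraries in podocytes, mesangial and parietal epithelial cells and higher in endothelial cells. The heat shock sum is highest in aged replicate 2 in every class.

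Shares of cells with a UMI were compared at equal depth, with each cell thinned to 1000 UMIs and shallower cells left out. Dusp1 was found in 50.6% and 45.03% (young) against 73.7% and 70.1% (aged) of endothelial cells and in 48.8% and 59.5% (young) against 34.4% and 37.6% (aged) of podocytes. Egr1 was found in 57.6% and 61.3% (young) against 31.8% and 35.4% (aged) of mesangial cells and in 63.3% and 68.3% (young) against 24.5% and 37.9% (aged) of parietal epithelial cells. Jun was found in 80% and 82.9% (young) against 36.7% and 37.9% (aged) of parietal epithelial cells. In B cells, which held the least Fos, 10.3% and 22.4% of young and 15.5% and 4% of aged cells had a Fos UMI. Before thinning, the endothelial shares of Dusp1 were 71.2% and 67.4% (young) against 88.3% and 90.8% (aged), and 28, 180, 124 and 19 cells were too shallow to be thinned. The shares did not overlap between young and aged libraries for 6 of the 10 genes in podocytes (38.7% of all genes tested), for 10 in endothelial cells (46%), for 8 in mesangial cells (41.3%) and for 8 of the parietal epithelial class (37.5%). Without thinning 22 of 40 gene and class pairs did not overlap, against 43.3% of all genes over the 4 classes. The smallest exact two-sided permutation p that 2 against 2 libraries allow is 0.33.

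The 6 genes most like the mean of the 10 members over the 16 sums of 4 classes and 4 libraries were Rin2 (Pearson r = 0.967), Ier2 (0.922), Lpl (0.914), Msrb3 (0.911), Zhx1 (0.904) and Pnrc2 (0.903), out of 3991 genes. The sums share libraries and the r is mostly set by differences between classes: with the class means taken out, r was 0.861 for Rin2 and from 0.407 to 0.552 for the others. Among the members, Atf3 (r = 0.764) and Jun (0.761) were most like the mean of the other 9. Fosl1 ran against it (-0.625) and Fosl2 was nearly unrelated (0.100).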

How the data were processed

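Single-cell 3′ libraries (Chromium kit v3.1) of 2 young and 2 aged preparations of mouse glomeruli were used. The deposited matrices hold raw UMI counts per gene and barcode, with no normalization by the authors. Per the labels' protocols reads were aligned to GRCm38 with Cell Ranger 3.1.0, whereas the submitters' processing notes name Cell Ranger 6.0.1 and Partek; which version made the counts is not given in the sources used here. No barcode had under 500 UMIs, and 99.6% of gene IDs were found in GENCODE vM21.

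The 10 members, the gene lists, the tests and the alternatives were chosen with earlier results of these data known. Barcodes with at least 500 genes and at most 20% mitochondrial UMIs were kept. Scrublet's automatic threshold marked 0.449%, so the highest scores were removed at 0.8% per 1000 barcodes (6.28%). Counts were scaled to 10000 per cell, and clusters were made in scanpy 1.11.5 with leidenalg 0.10.2 (2000 variable genes without members, other immediate early and heat shock genes, 30 components, 15 neighbours, resolution 1). A cluster was named from its marker level (at least 0.35 of the best cluster, at least 3 markers) unless an unrelated class reached 0.25. The naming rule was set after the data had been seen and revised several times on the numbers of cells and clusters it named, before the members were summed by class. Names rebuilt in this way can differ from the authors' own.

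UMIs were summed per class and library and compared between age groups with the quasi-likelihood test of edgeR 4.0.16 in R 4.3.3 (TMM, its default expression filter, Benjamini-Hochberg over all genes, called at an adjusted p under 0.05). The SE of a log2 fold change is its absolute value over the root of the F statistic. The scripts were tested on simulated data. DESeq2 1.42.0 and other settings were alternatives. Named are all members, up to 2 called genes with the smallest p per list and class, and the 6 genes most alike in pattern among those at a mean of at least 20 CPM. Some genes that this rule names are not reported here; the counts over their lists include them. The SEs carry the spread between libraries that edgeR estimated from 2 libraries per group.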

Additional observations from a re-analysis of the deposited data

Results flagged for a closer look

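The 23 differences in age effect between classes that passed edgeR's quasi-likelihood interaction test with Benjamini-Hochberg adjustment are listed here because the same contrast gave unlike changes in a pair of classes. Each value is the log2 change (aged over young) in the class named first minus that in the class named second, and the classes share their libraries. For endothelial minus podocyte cells, the change differed for Junb by 0.39, Fos by 0.71, Atf3 by -0.84 and Dusp1 by 2.01, with adjusted p-values from 3.7e-15 to 0.0115. For mesangial minus podocyte cells, the change differed for Atf3 by -1.48, Egr1 by -0.97 and Dusp1 by 1.02, with adjusted p-values from 1.03e-06 to 0.000926. For parietal epithelial minus podocyte cells, the change differed for Jun by -1.15, Junb by -1.02, Fos by -0.77, Fosb by -0.98, Atf3 by -1.17, Egr1 by -1.34 and Dusp1 by 0.99, with adjusted p-values from 2.71e-07 to 0.025. For mesangial minus endothelial cells, the change differed for Atf3 by -0.63, Egr1 by -0.72 and Dusp1 by -0.98, with adjusted p-values from 0.00613 to 0.0415. For parietal epithelial minus endothelial cells, the change differed for Jun by -1.05, Junb by -1.41, Fos by -1.47, Fosb by -0.93, Egr1 by -1.09 and Dusp1 by -1.03, with adjusted p-values from 2.85e-07 to 0.0223. For podocytes these differences also carry the unequal share of cluster 8 (5.23% and 10.9% of young and 57.3% and 56.5% of aged podocytes), and its part in them was not tested.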

How the results depend on the processing

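Leaving out each library in turn gave from 1 to 4 called members in podocytes (1 without aged replicate 1), from 0 to 3 in endothelial cells (0 without young replicate 1 or young replicate 2, where no gene of the table was called), from 0 to 8 in mesangial cells (0 without either young library, 8 without aged replicate 2) and from 5 to 7 in parietal epithelial cells, against 4, 3, 4 and 6. The lone library left in a group was assumed to vary like the others. Interactions called numbered from 15 (without aged replicate 1) to 26, against 23, and level differences from 37 to 42, against 43. With cells named one by one, 2 members were called in podocytes, 2 in mesangial cells and 3 in the parietal epithelial class, and with mixed cells kept, 0 in podocytes (edgeR; 2 at an unadjusted p under 0.05) and 2 in mesangial cells. Thinning to 1000 UMIs gave 2 in podocytes. DESeq2 gave 6 in endothelial cells, and no filter on low counts gave 0 there by edgeR (6 at an unadjusted p under 0.05). The cause was not tested. Clusters tested alone, chosen after seeing the data, gave 9 (cluster 2) and 2 (cluster 8) in podocytes and 1, 2, 1, 4 and 2 in endothelial clusters 0, 1, 4, 7 and 11. The replicate numbers do not pair the libraries: correlations of deviations between same-numbered libraries ran from -0.0428 to 0.0932. A replicate block gave 4, 6, 7 and 5 called members in podocyte, endothelial, mesangial and parietal epithelial sums.

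The alternative that kept only clusters with 20 cells in each library held the same cells as the main test in all 4 classes, so it tested nothing and is not counted. Of 624 changes of single members under the other alternatives, 509 kept their direction and side of the threshold, 60 lost the call, 32 gained one and 23 reversed. In podocyte cluster 2 Junb (-0.88), Fosl2 (-0.77) and Atf3 (-0.94) reversed, and in cluster 8 Junb (-0.073). The other reversals were all of changes not called either way. In endothelial cells these were Jund without young replicate 2 (-0.070; up to 0.095 without another library), with cells named one by one (-0.0052), thinned (-0.011) and in clusters 0 (-0.086), 1 (-0.096), 4 (-0.049) and 11 (-0.44), Jun (0.020), Fosb (0.066) and Egr1 (0.049) in cluster 1, and Atf3 in clusters 0 (0.058) and 4 (0.045). In mesangial cells Junb reversed with mixed cells kept (0.034) and Dusp1 when thinned (-0.037). In parietal epithelial cells Fosl2 reversed without young replicate 1 (-0.17) and aged replicate 2 (-0.0062; up to 0.53 without another library), and Dusp1 without young replicate 1 (-0.42; up to 1.03 without another library), with mixed cells kept (-0.20) and thinned (-0.43). Depth limits Fosl1, which had 1 to 48 UMIs per library outside endothelial cells, and the parietal epithelial class, of 30 to 69 cells a library.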

Other observations

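Barcodes outside the named classes also carried the members. Barcodes with under 500 genes, which were left out, had a Fos level of 4041 plain CPM in young replicate 2 and at most 281 in the other 3 libraries, and Jun was at 3245 against at most 405. In the clusters with markers of several classes, Fos was at 5477 in young replicate 2. Free RNA rich in these genes in that library was not tested. Smooth muscle and renin cells were not among the 4 glomerular classes tested. They held 374 ± 58.1 plain CPM of Fosl2 (SD, n = 4 libraries), the highest mean of the 11 named classes. Their Fos was at 3115 ± 736, second to podocytes.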
